A study of Homo sapiens with 15 samples.

Results

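Ribosome biogenesis and MYC target genes were followed here as a set of 30 genes in accessible-chromatin maps (ATAC-seq) of HPAF-II, a human pancreatic ductal adenocarcinoma line whose growth depends on Wnt ligands. The cells had received 1 µM Lgk974, an inhibitor of the acyltransferase porcupine that Wnt ligands need for secretion, or the solvent DMSO, and 15 libraries fell into 4 groups: Lgk974 for 24 h (4 libraries), DMSO for 24 h (4), Lgk974 for 48 h (3) and DMSO for 48 h (4). The labels name no transgene, deletion or other agent in any group; their text on cell culture covers the gastric line KATO III as well. Nothing in the labels says that replicates were separate cultures, so the p-values below measure the spread between these libraries, which may be technical. Each library was deposited as 1 list of peaks, and a region was counted as called in a library when a peak of its list lay there. The peaks of all 15 lists were merged into 222814 regions. Those inside a listed gene or within 50 kb of either of its ends were taken as its regions: 428 in all, 47 of them within 1 kb of an end and 381 farther away, none shared between 2 of the genes.

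Ribosome production starts in the nucleolus, where RNA polymerase I copies the ribosomal DNA into a long precursor that snoRNPs modify and assembly factors cleave, fold and package into the small and the large subunit. MYC, a transcription factor that binds E-box sequences with its partner MAX, raises the output of many of the genes involved, together with genes of polyamine, nucleotide and energy metabolism. In Wnt-dependent tumours MYC is a well-known downstream gene of the pathway, and growth and ribosome production are known to follow it. The 30 genes were grouped by role: 3 of the box C/D snoRNP, 5 small-subunit factors, 8 large-subunit factors, 4 nucleolar scaffold proteins and chaperones, 4 of the RNA polymerase I machinery and 6 further MYC targets.

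The promoters of 10 of the genes are shown. For 8 of them (NOP56, LDHA, ODC1, NIP7, POLR1B, POLR1A, CAD and NOC2L) a region at an end or nearby differed between treatments at an unadjusted p under 0.05. UBTF had a region just inside its start that was called in no Lgk974 library, while the region just before its start was called in all 15 libraries. EIF4E had its start called in all 15 libraries and 2 E-boxes before it. Each is the 250 bases before the annotated transcription start, 5′ to 3′ on the gene's strand, from RefSeq on GRCh38.p14. Capitals mark an E-box (CACGTG), a TCF/LEF core (CTTTGAT on either strand), the letters read by the Wnt pathway's DNA-binding factors, or an ETS core (CCGGAAG on either strand), the letters read by ETS factors at many housekeeping promoters. The stretches are chr20:2652382-2652631 (plus strand) for NOP56, chr17:44220883-44221132 (minus) for UBTF, chr2:86105887-86106136 (minus) for POLR1A, chr16:69339522-69339771 (plus) for NIP7, chr2:10448328-10448577 (minus) for ODC1, chr2:27217119-27217368 (plus) for CAD, chr2:112541786-112542035 (plus) for POLR1B, chr1:959257-959506 (minus) for NOC2L, chr11:18394313-18394562 (plus) for LDHA and chr4:98929134-98929383 (minus) for EIF4E.
NOP56: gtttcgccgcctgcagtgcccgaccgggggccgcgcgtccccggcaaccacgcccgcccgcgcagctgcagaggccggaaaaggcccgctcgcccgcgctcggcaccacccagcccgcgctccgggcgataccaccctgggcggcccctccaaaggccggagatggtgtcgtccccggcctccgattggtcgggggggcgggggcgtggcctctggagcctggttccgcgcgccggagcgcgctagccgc
UBTF: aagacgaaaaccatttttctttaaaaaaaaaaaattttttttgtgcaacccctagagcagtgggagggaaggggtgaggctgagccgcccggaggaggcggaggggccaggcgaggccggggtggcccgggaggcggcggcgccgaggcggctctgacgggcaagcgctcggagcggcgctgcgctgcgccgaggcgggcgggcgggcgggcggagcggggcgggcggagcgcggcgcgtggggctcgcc
POLR1A: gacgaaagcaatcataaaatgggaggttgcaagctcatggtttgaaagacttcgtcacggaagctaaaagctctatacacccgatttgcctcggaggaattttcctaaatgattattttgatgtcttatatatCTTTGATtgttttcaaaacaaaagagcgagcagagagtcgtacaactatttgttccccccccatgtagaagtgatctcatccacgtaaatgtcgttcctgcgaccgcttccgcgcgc
NIP7: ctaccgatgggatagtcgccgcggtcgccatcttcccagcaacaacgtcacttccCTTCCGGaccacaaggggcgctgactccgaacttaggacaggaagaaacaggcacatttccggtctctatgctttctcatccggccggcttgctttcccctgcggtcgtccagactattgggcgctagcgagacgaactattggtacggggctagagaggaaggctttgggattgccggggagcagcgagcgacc
ODC1: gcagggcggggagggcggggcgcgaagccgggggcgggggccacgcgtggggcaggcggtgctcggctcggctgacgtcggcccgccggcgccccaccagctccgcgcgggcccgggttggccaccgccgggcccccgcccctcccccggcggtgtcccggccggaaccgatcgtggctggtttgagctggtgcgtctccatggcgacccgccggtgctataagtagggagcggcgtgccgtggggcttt
CAD: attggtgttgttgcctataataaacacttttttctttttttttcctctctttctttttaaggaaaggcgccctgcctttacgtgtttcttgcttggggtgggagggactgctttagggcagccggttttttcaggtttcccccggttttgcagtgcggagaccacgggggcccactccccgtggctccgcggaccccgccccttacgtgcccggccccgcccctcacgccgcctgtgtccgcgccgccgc
POLR1B: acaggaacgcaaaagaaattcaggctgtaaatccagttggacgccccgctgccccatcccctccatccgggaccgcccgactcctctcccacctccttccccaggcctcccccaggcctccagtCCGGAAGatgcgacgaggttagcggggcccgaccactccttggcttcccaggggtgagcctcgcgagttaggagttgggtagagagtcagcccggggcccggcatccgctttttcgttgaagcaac
NOC2L: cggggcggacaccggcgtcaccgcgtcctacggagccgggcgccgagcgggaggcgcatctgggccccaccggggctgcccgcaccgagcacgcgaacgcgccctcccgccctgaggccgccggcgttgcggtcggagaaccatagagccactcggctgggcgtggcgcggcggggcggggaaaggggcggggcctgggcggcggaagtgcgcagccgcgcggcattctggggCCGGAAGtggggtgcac
LDHA: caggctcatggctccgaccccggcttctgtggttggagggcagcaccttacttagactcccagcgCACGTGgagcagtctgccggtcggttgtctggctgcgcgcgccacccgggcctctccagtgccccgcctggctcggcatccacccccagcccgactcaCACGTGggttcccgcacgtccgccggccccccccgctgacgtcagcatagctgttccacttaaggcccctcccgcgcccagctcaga
EIF4E: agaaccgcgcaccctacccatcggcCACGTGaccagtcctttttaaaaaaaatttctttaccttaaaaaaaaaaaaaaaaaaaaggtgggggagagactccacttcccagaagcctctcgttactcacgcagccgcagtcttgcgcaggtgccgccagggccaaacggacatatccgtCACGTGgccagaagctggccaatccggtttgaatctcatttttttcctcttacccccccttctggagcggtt

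Among the 26 genes with a promoter in the table, an E-box was found in 4 (15.4%), against 7.83% of 15811 protein-coding promoters of the same length and 9.19% of the 8669 whose start had a peak in all 15 libraries. The 4 were EIF4E, with matches 225 and 72 bases before the start, LDHA at 185 and 87, SRM at 199 and UTP20 at 10. The TCF/LEF core was found in 1 of 26 (3.85%, against 1.73% of protein-coding promoters and 1.17% of those with a peak in all libraries), 117 bases before the start of POLR1A. The ETS core was found in 8 (30.8%, against 11.8% and 18.3%): DDX21, FBL, NIP7, NME1, NOC2L, NOP16, POLR1B and RRP9. The E-box shares no base with the other 2 motifs in these 26 promoters, and the 2 ETS matches of NOP16, at 19 and 16 bases before the start, overlap each other. The G and C content ran from 40.4% in WDR12 to 82.0% in SRM with a median of 62.6%, against a median of 64.8% over the 8669 starts. These are matches of letters and do not show that a factor was bound.

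Lists held 53610 to 127886 peaks, and read depth is unknown. 3 libraries stood apart in which regions they called. Their mean Jaccard index with the other lists was 0.513 for Lgk974 24 h replicate 3, 0.376 for DMSO 24 h replicate 3 and 0.478 for Lgk974 48 h replicate 3, against 0.583 to 0.656 for the other 12. The 2 Lgk974 libraries among them had the shortest lists. An end of 9 epithelial marker genes was called in all 15 libraries (KRT7, KRT8, KRT18, KRT19, EPCAM, CDH1, MUC1, GATA6 and ELF3). The same held for an end of 54.3% of 19970 protein-coding genes. Of 5 fibroblast marker genes COL1A2 had an end called in 11 libraries and PDGFRB in 10, while COL3A1, FAP and DCN had none in any. Among leukocyte marker genes CD3E had an end called in 15 libraries, ITGAM in 13, CD79A in 12 and PTPRC in 2. Of 3 endothelial ones CDH5 was called in 1 library and PECAM1 and VWF in none. Their part in the results was not tested. Over the whole series, calling of 60356 regions could be compared between treatments by an exact permutation test within each time. In bulk libraries a peak missing from a list cannot tell fewer open cells from a weaker signal per cell. 0 of the regions passed at a Benjamini-Hochberg adjusted p under 0.05 (0.0%), while without adjustment p was under 0.05 with a higher calling rate under Lgk974 in 2.96% and with a lower one in 3.08%.

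The ends of these genes, as a rule the transcription start, were accessible in all 4 groups. An end of 28 of the 30 genes was called in all 15 libraries, against 54.3% of 19970 protein-coding genes. When a region was called only where 50% or more of its length lay under peaks of the library, the count was 17 of 30, against 30.3% of protein-coding genes. NOC2L, a nucleolar factor linked to large-subunit assembly, had an end in 14 libraries, 6 of 7 Lgk974 and 8 of 8 DMSO. BYSL, the bystin factor of small-subunit maturation, had none by this rule, because its RefSeq span reaches beyond its annotated start; the region over that start, chr6:41920537-41921967, was called in all 15. Of the 47 end regions, 31 (66.0%) were called in all 15 libraries, against 48.2% of the 21185 end regions of protein-coding genes and 15.9% of all regions. Those 31 were strong peaks, with the median −log10 q of each, the authors' own value, lying between the 51.2 and the 97.3 percentile of its lists and a median percentile of 85.1. Strong peaks were not particular to the ends: the 104 regions farther away that were called in all 15 libraries had a median percentile of 78.7.

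**Figure D1:**
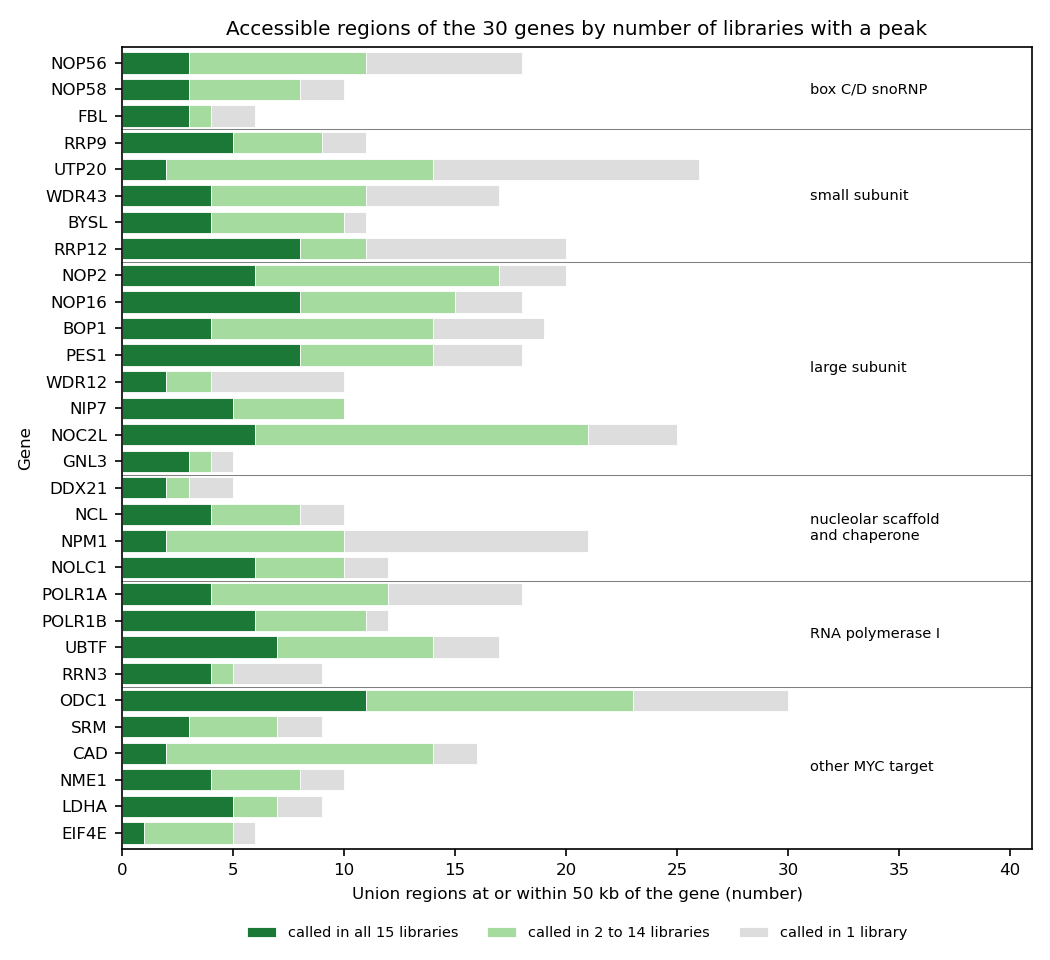
The plot shows the number of merged regions inside or within 50 kb of each of the 30 genes (x axis), grouped by role, with bar parts for regions called in all 15 libraries, in 2 to 14 and in 1 library. Every gene had at least 1 region called in all 15 libraries, from 1 for EIF4E to 11 for ODC1, and regions called in 1 library were most numerous at UTP20 (12) and NPM1 (11).

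The genes differed in how much accessible sequence lay around them. ODC1, the rate-limiting enzyme of polyamine synthesis, had 30 regions, 11 of them in all 15 libraries. UTP20, a scaffold of the small-subunit processome, had 26 regions, of which 2 were in all 15 and 12 in 1 library. NOC2L had 25. At the other extreme DDX21, a nucleolar RNA helicase, and GNL3 (nucleostemin) had 5 each, and FBL (fibrillarin, the methyltransferase of box C/D snoRNPs) and EIF4E (the cap-binding translation factor) had 6 each. RRP12, NOP16 and PES1, factors of small-subunit export, large-subunit assembly and the PeBoW complex, each had 8 regions in all 15 libraries.

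Whether the ends differed between treatments could be tested for the 8 end regions called in 3 to 12 libraries. None passed after adjustment over all 60356 regions (0.0%); the smallest adjusted p was 0.543. Without adjustment 3 of the 8 had p under 0.05, all with a lower rate under Lgk974; among 3967 tested end regions of protein-coding genes 2.19% had such a p with a higher rate and 3.45% with a lower one. All 3 lay at the far end of their gene, away from the transcription start. The count of 3 rested on few libraries and on weak peaks. With lists of equal length it was 0, but only 3 end regions could then be tested, against 8. In the 15 runs that left out 1 library the count was 3 in 2 runs, 2 in 6 and 1 in 7. The 7 were those without DMSO 24 h replicate 1, 2 or 4, DMSO 48 h replicate 2 or 4, and Lgk974 48 h replicate 2 or 3.

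The first was the far end of NOP56, a core protein of box C/D snoRNPs, at chr20:2658468-2659226, beyond the gene and inside its neighbour IDH3B. At 24 h a peak was present in 0 of 4 Lgk974 and in 4 of 4 DMSO libraries, and at 48 h in 0 of 3 Lgk974 and in 2 of 4 DMSO libraries (replicates 2 and 3). The groups did not overlap at 24 h, and they did at 48 h. The exact permutation test over both times gave p = 0.00612 and an adjusted p of 0.543. These were weak peaks: −log10 q was 11.1, 8.66, 7.54 and 5.27 in DMSO 24 h replicates 1 to 4, and 4.84 and 6.27 in the 2 DMSO 48 h libraries, with a median percentile of 25.2 in their lists.

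The second was 515 bp beyond the far end of LDHA, lactate dehydrogenase A, at chr11:18408940-18409388, and lay in no protein-coding gene. No Lgk974 library called it, against 3 of 4 DMSO libraries at 24 h (replicates 1, 2 and 4) and 2 of 4 at 48 h (replicates 2 and 4). The exact permutation test gave p = 0.0306 and an adjusted p of 0.666. The −log10 q was 12.3, 8.26 and 4.12 in the 3 DMSO 24 h libraries and 5.43 and 7.97 in the 2 DMSO 48 h libraries.

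The third was the far end of ODC1, at chr2:10438684-10439921, 47 bp beyond the gene. At 24 h a peak was present in 1 of 4 Lgk974 and in 4 of 4 DMSO libraries, and at 48 h in 1 of 3 Lgk974 and in 3 of 4 DMSO libraries, so the groups overlapped at both times. The exact permutation test gave p = 0.0469 and an adjusted p of 0.772. By its −log10 q it stood at the 29.4 percentile of its list in the Lgk974 24 h and at the 1.21 percentile in the Lgk974 48 h library that called it, and between the 16.3 and 57.3 percentiles in the 7 DMSO libraries.

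The 5 other tested end regions did not pass even without adjustment. A region 120 bp inside the annotated start of UBTF, the upstream binding factor that recruits RNA polymerase I, at chr17:44220222-44220762, had a peak in 0 of 7 Lgk974 and in 4 of 8 DMSO libraries (exact permutation p = 0.0714). These calls were among the weakest of their lists, with a median percentile of 2.29. The adjacent region just before the UBTF start, at chr17:44220892-44221961, was called in all 15 libraries. WDR43, a small-subunit processome protein, had a second region 896 bp inside its start, present in 5 of 7 Lgk974 and in 4 of 8 DMSO libraries (exact permutation p = 0.498). NME1, a nucleoside diphosphate kinase, had one 951 bp before its start, present in 5 of 7 Lgk974 and in 6 of 8 DMSO libraries (p = 0.939, exact permutation test). The far end of SRM, spermidine synthase, was accessible in 2 of 7 Lgk974 and in 2 of 8 DMSO libraries, and an end of BOP1, a PeBoW component, in 2 of 7 Lgk974 and in 1 of 8 DMSO libraries.

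**Figure D2:**
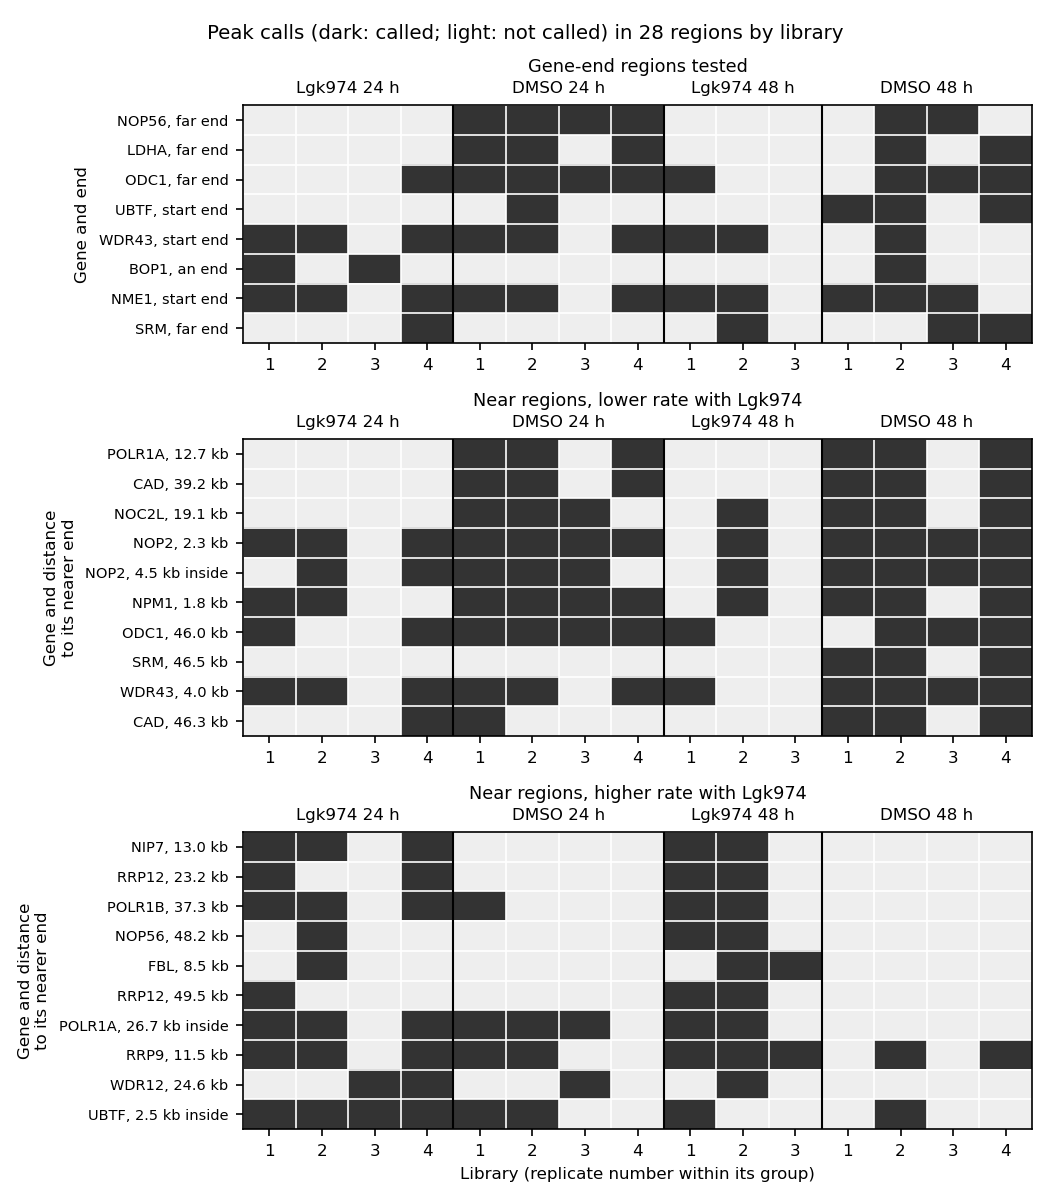
Each row is a region, each column a library, dark where a peak was called: the 8 tested end regions (top), and the 10 near regions with the smallest p in each direction (lower rate with Lgk974 in the middle, higher at the bottom), with the distance to the nearer end of the gene in kb. The far ends of NOP56 and LDHA were dark in 6 and 5 of 8 DMSO libraries and in none of the 7 Lgk974 libraries, and replicate 3 of both Lgk974 groups, the shortest lists, was light in all 10 rows of the middle panel.

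Counted over all ends, Lgk974 24 h libraries called 36, 36, 32 and 37 of the 47 end regions, against 40, 40, 38 and 38 in DMSO 24 h. Lgk974 48 h libraries called 36, 37 and 32, against 35, 40, 37 and 37 in DMSO 48 h. The groups did not overlap at 24 h and overlapped at 48 h, and the mean difference was −3.00 regions (pooled SD 2.03). Because list lengths differ, each library's calls were also set against its own calling rate for all regions called in as many libraries; the mean departure is the detection excess, in percentage points. It was −2.24, −3.28, −0.953 and −0.841 in Lgk974 24 h against 3.18, 3.40, 0.470 and 7.11 in DMSO 24 h, and the groups did not overlap. At 48 h it was −4.61, −6.40 and −1.42 with Lgk974 against −3.71, 3.46, 3.22 and 2.62 with DMSO, where DMSO replicate 1 lay among the Lgk974 values. The mean of the 24 h and 48 h differences was −5.45 points (pooled SD 2.60), with no p, since the genes were chosen with results of these data known.

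Few regions made up that difference. The far ends of NOP56, LDHA and ODC1 contributed −1.60, −1.35 and −1.26 points, the UBTF region −1.07 and the far end of NCL (nucleolin, called in 13 libraries) −0.327, together −5.60 of the −5.45. The difference also changed sign with the number of peaks used: when each list was cut to its 53610 strongest peaks, the end excess was 2.53, −0.165, 1.44 and 2.55 in Lgk974 24 h against −2.77, −0.122, 3.99 and 2.84 in DMSO 24 h. At 48 h it was 0.135, −2.26 and 1.42 with Lgk974 against −4.79, −8.06, 0.323 and 2.93 with DMSO. The groups then overlapped at both times, the mean difference was 1.38 points, and the NOP56, LDHA and UBTF regions had no peak left in any library. Only 37 of the 47 end regions kept a peak, 26 of them in all 15 libraries. The 1.38 points thus belong to a smaller set of ends, and the cut itself removed those weak regions.

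**Figure D3:**
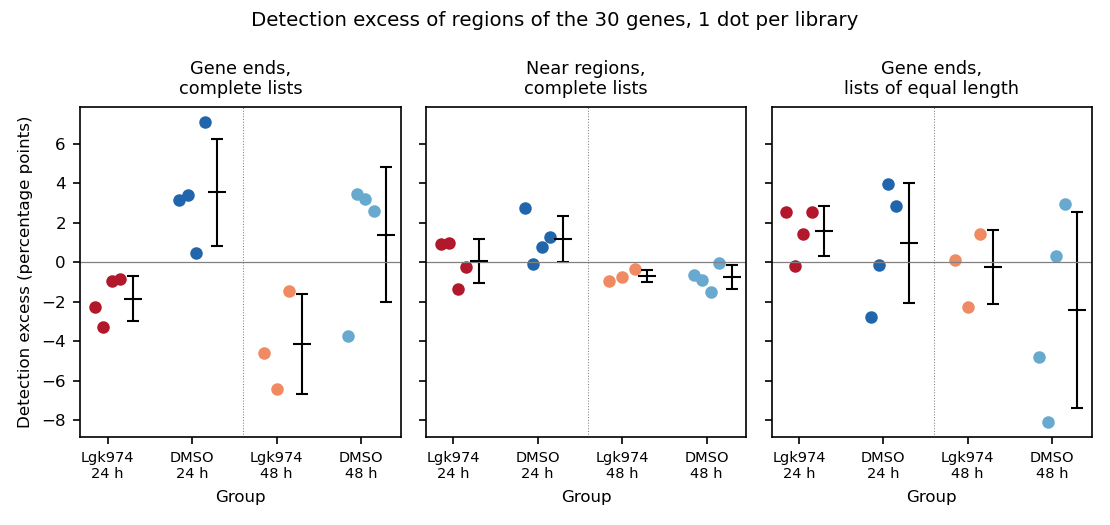
Detection excess (y axis, percentage points) of the gene ends and near regions with complete lists, and of the gene ends with all lists cut to equal length, by group; a dot is a library and the bar is the mean with its SD. Gene ends lay lower with Lgk974 in complete lists (−0.841 or less at 24 h, against 0.470 or more with DMSO), near regions overlapped, and with lists of equal length the ends overlapped too. Lists of equal length left 37 of the 47 end regions with a peak.

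Farther from the ends, about as many regions had a higher as a lower calling rate. Of the 381 near regions 104 (27.3%) were called in all 15 libraries and 110 in 1, and 103 could be tested. The calling rate was higher with Lgk974 in 46, lower in 55 and equal in 2. Without adjustment p was under 0.05 in 6, of which 3 had a higher and 3 a lower rate, 2.91% each way and close to the 2.96% and 3.08% of all tested regions. None passed after adjustment, and the smallest adjusted p was 0.543. When treatment was permuted only between libraries of the same replicate number and time, no near region had an unadjusted p under 0.05. The near detection excess differed by −1.10 points at 24 h and 0.0772 at 48 h, with overlapping groups at both times and a mean of −0.513 (pooled SD 0.911). Libraries called 127 to 238 of the near regions.

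Of the 3 called more often with Lgk974, the one with the smallest p lay 12982 bp before NIP7, a large-subunit assembly factor, at chr16:69326441-69326790 in COG8 and VPS4A. At 24 h a peak was present in 3 of 4 Lgk974 and in 0 of 4 DMSO libraries, and at 48 h in 2 of 3 Lgk974 and in 0 of 4 DMSO libraries (exact permutation p = 0.0102, adjusted p = 0.543). The 2 Lgk974 libraries without it were those that stood apart; without the 3 such libraries it was present in 5 of 5 Lgk974 and in 0 of 7 DMSO libraries (exact permutation p = 0.00333, adjusted p = 0.266). Its peaks were weak, with −log10 q of 6.63, 10.7 and 7.42 in Lgk974 24 h and 9.45 and 6.25 in Lgk974 48 h, and none was among the 53610 strongest of its list.

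The second lay 23.2 kb from RRP12, at chr10:97332842-97333192 within FRAT2, a gene of a GSK3-binding protein in the Wnt pathway. It had a peak in 4 of 7 Lgk974 and in 0 of 8 DMSO libraries (exact permutation p = 0.0306, adjusted p = 0.666). The third lay 37.3 kb beyond POLR1B, the second-largest subunit of RNA polymerase I, at chr2:112617069-112617819, outside protein-coding genes. It was called in 5 of 7 Lgk974 libraries, between the 17.1 and 59.5 percentiles of their lists, and in 1 of 8 DMSO libraries, at the 10.03 percentile (exact permutation p = 0.0388, adjusted p = 0.741).

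Of the 3 called less often with Lgk974, one lay 12.7 kb before POLR1A, the largest subunit of RNA polymerase I, at chr2:86118615-86119188 inside PTCD3, a mitochondrial ribosome protein gene. No Lgk974 library called it, against DMSO replicates 1, 2 and 4 at both times (6 of 8 libraries; exact permutation p = 0.0102, adjusted p = 0.543). Its −log10 q was 14.8, 19.4 and 6.15 in DMSO 24 h and 17.4, 20.4 and 16.8 in DMSO 48 h, with a median percentile of 56.4. It was therefore the strongest of the 6, and with lists of equal length its calling rate was still lower with Lgk974, by 50.0 percentage points (exact permutation p = 0.0714). A second lay 39.2 kb before CAD, the enzyme of the first steps of pyrimidine synthesis, at chr2:27177567-27178133. It was called in the same 6 DMSO libraries and in no Lgk974 library (exact permutation p = 0.0102, adjusted p = 0.543), with −log10 q between 4.83 and 11.9. The third lay 19.1 kb from NOC2L, at chr1:924649-925094 in SAMD11, with a peak in 1 of 7 Lgk974 and in 6 of 8 DMSO libraries (p = 0.0469, exact permutation test, adjusted p = 0.772).

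The other 14 near regions named by rank had exact permutation p between 0.0714 and 0.296. With a higher rate under Lgk974 these lay near NOP56, FBL, RRP12, POLR1A, RRP9, WDR12 and UBTF. The FBL region, 8.5 kb beyond the gene in DYRK1B, had a peak in 3 of 7 Lgk974 and in 0 of 8 DMSO libraries. With a lower rate they lay near NOP2 (a ribosomal RNA methyltransferase, 2 regions), NPM1 (the nucleolar chaperone nucleophosmin), ODC1, SRM, WDR43 and CAD. One 46.5 kb beyond SRM was called in DMSO 48 h replicates 1, 2 and 4 and in no other library.

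By role, the tested regions leaned in no common direction. The calling rate was higher with Lgk974 in 6 of 11 tested box C/D snoRNP regions and lower in 5. It was higher in 11 and lower in 6 of 17 for the small subunit, higher in 16 and lower in 22 of 39 for the large subunit, and higher in 4 and lower in 5 of 9 for scaffold proteins. For RNA polymerase I it was higher in 8 and lower in 5 of 13. The further MYC targets had 4 higher and 17 lower of 22, all 6 regions of CAD among the lower, against 27348 higher and 32513 lower among all tested regions of the series.

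A value for each gene as a whole was taken as the mean excess over its regions called in 1 to 14 libraries, for genes with 5 or more of them, and tested over 17517 protein-coding genes; this measure was added after the data had been seen. None passed after adjustment (0.0%), while p was under 0.05 without adjustment with a higher value in 7.22% and with a lower one in 4.96%. Of the 26 genes with a value, 11 were higher and 15 lower with Lgk974, with a median difference of −1.67 points against 0.168 over all genes. In 4 the unadjusted p was under 0.05. The means of NIP7 and CAD hold the regions near these genes already named above by their p, so they partly restate those calls. NIP7 averaged 5.59 points with Lgk974 and −6.41 with DMSO at 24 h, and 17.6 and −12.4 points in Lgk974 and DMSO libraries at 48 h, from 5 regions (exact permutation p = 0.0167, adjusted p = 0.292); values overlapped at both times. EIF4E had 5 regions, and the mean of its 24 h and 48 h differences was −15.9 points (exact permutation p = 0.0163, adjusted p = 0.290). At 24 h its values were −7.41, −10.1, 2.13 and −8.93 with Lgk974 against 24.4, 25.3, −4.87 and −11.5 with DMSO, and they overlapped. At 48 h the 3 Lgk974 values, −13.4, −3.01 and −17.2, lay below the 4 DMSO values of 15.04, 5.12, 3.35 and 1.15. PES1 averaged 3.57 with Lgk974 and −3.12 with DMSO (exact permutation p = 0.0249). CAD averaged 0.0848 with Lgk974 and 3.07 with DMSO at 24 h, with overlapping values, and −9.96 with Lgk974 and 4.32 with DMSO at 48 h (exact permutation p over both times = 0.0376). Its 48 h values were −5.68, −13.6 and −10.6 with Lgk974 against −2.50 to 16.7 with DMSO, without overlap. Leaving out 1 library at a time, p stayed under 0.05 in 14 of 15 runs for NIP7, 11 of 15 for PES1, 10 of 13 for EIF4E and 5 of 15 for CAD. With the replicate block the exact permutation p was 0.03125 for NIP7 and PES1, 0.0625 for EIF4E and 0.0781 for CAD. Without the 3 libraries that stood apart it was 0.0333 for NIP7, 0.0767 for PES1 and 0.107 for CAD. With a 20 kb limit the genes with exact permutation p under 0.05 were instead NOP56 (−21.1 points), NOC2L (−16.5), RRP12 (−8.53) and UTP20 (−5.92). The share of all protein-coding genes past that threshold was not counted with this limit. The NOP56 and NOC2L means again hold regions named above by their p. RRP12 and UTP20 differed by 1.58 and 1.76 points with the main limit.

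How strong the start peaks were was described by rank, since −log10 q values cannot be compared between lists. For each library the 8669 protein-coding starts with a peak in all 15 libraries (54.8% of 15811) were ranked by −log10 q, and 25 of the genes were among them; this measure too was added after the data had been seen. Their median percentiles spread over nearly the whole scale, with a median of 48.5 against 49.8 over the 8669 starts. RRP9, the U3 snoRNA-binding protein, was highest at 88.6 (77.4 to 93.3 over the 15 libraries), followed by NIP7 at 80.2, PES1 at 78.7, NOP16 at 75.8, WDR43 at 74.4 and NME1 at 72.7. BYSL followed at 70.7, the polymerase I initiation factor RRN3 at 67.5, POLR1A at 64.7, NCL at 61.0, NPM1 at 57.0 and POLR1B at 56.6. The ranked start of PES1, chr22:30591910, lies inside its RefSeq span, apart from its end region at chr22:30606718-30607523. Below the middle lay GNL3 at 48.5, UTP20 at 47.8, EIF4E at 46.9, NOP56 at 38.5, WDR12 (a PeBoW component) at 38.0, NOP2 at 34.3 and DDX21 at 31.4. The lowest were CAD at 23.9, FBL at 21.6, LDHA at 20.7, SRM at 14.3, UBTF at 5.53 and ODC1 at 3.28. Neighbours in this order differed by less than their spread, the SD of a gene over libraries having a median of 10.4 points, while RRP9 and ODC1 did not overlap (ODC1 1.39 to 21.03). Of the 6 genes with the lowest ranks, 4 were further MYC targets outside the ribosome. Low ranks were not general to such targets: EIF4E and NME1 stood at 46.9 and 72.7. In a separate list of other MYC targets, described below, 34 ranked starts had a median percentile of 75.3. The order depended on the value ranked. By the authors' fold over background PES1 (96.6) and RRN3 (94.5) were highest and RRP9 stood at 69.7. GNL3 (71.4), WDR12 (57.5) and UTP20 (55.5) then lay above the middle, and POLR1B (47.5), NOP16 (44.9), NPM1 (39.6) and NCL (29.6) below it. FBL stood at 45.9, while UBTF (7.93) and ODC1 (1.22) were again the lowest.

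**Figure D4:**
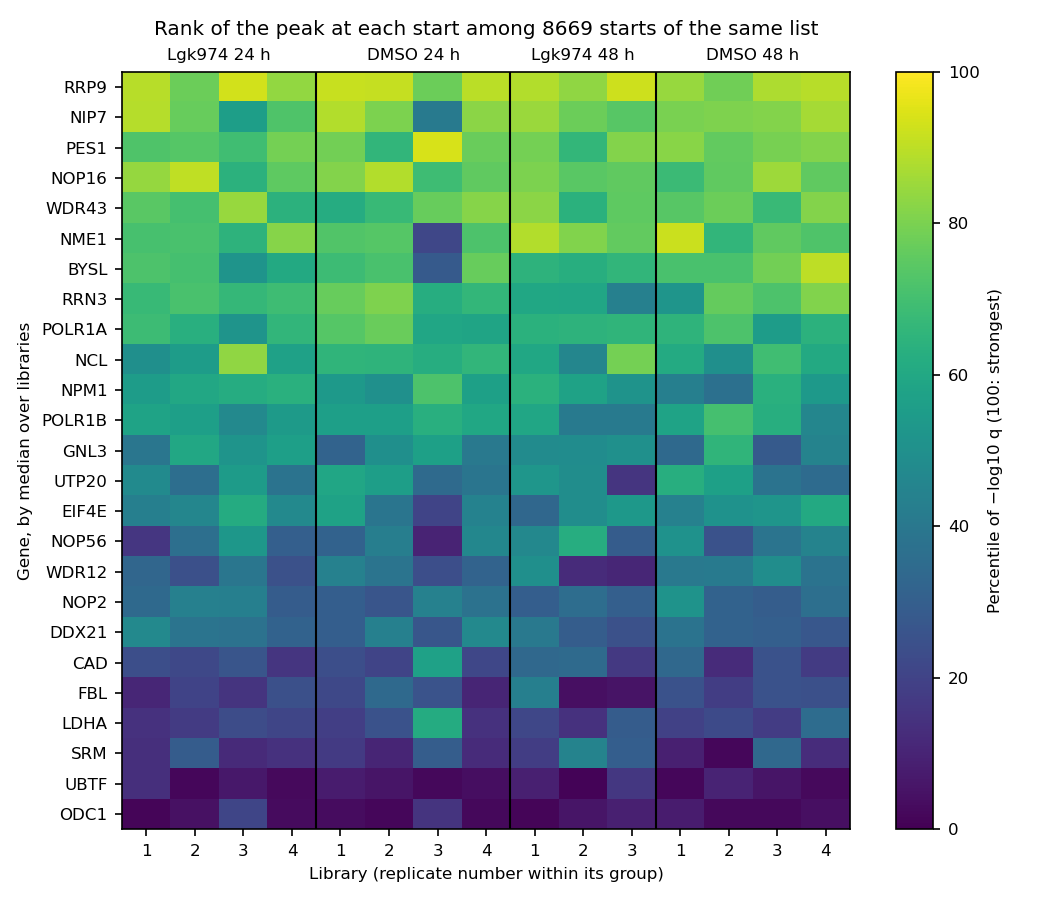
Percentile of the −log10 q of the peak at each start among 8669 starts of the same list (colour, 100 the strongest) for 25 genes (rows, by median) in 15 libraries (columns, by group). Rows keep their colour across the 4 groups, from RRP9 at a median of 88.6 to ODC1 at 3.28, and single cells that break a row lie mostly in DMSO 24 h replicate 3.

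None of the 25 start ranks differed between treatments at an unadjusted p under 0.05: 12 were higher and 13 lower with Lgk974. Over the 8669 starts 0 passed after adjustment (0.0%), and without adjustment 3.71% had p under 0.05 with a higher rank and 3.67% with a lower one. Leaving out libraries moved single genes across that threshold with none passing after adjustment: FBL, WDR12 and POLR1B were lower without Lgk974 48 h replicate 1, RRN3 and BYSL without DMSO 24 h replicate 3, PES1 without DMSO 24 h replicate 2, RRN3 without DMSO 48 h replicate 1 and POLR1B without DMSO 48 h replicate 4. GNL3 was higher without DMSO 48 h replicate 2, and NCL and BYSL were lower without the 3 libraries that stood apart. With all 15 the smallest p was that of POLR1B. Its percentiles were 57.8, 56.5, 46.9 and 54.3 in Lgk974 24 h against 56.6, 56.3, 63.2 and 59.6 in DMSO 24 h, and 59.3, 40.9 and 41.4 in Lgk974 48 h against 58.0, 70.3, 62.7 and 45.7 in DMSO 48 h. The groups overlapped at both times, and the mean difference was −8.50 points (exact permutation p = 0.0665, adjusted p = 0.718). RRN3 differed by −9.70 points (exact permutation p = 0.0824) and WDR12 by −11.0 (exact permutation p = 0.119). Ranked by the authors' fold over background, the same 2 genes had an unadjusted p under 0.05, WDR12 with −15.5 points (exact permutation p = 0.0445) and RRN3 with −7.57 (exact permutation p = 0.0433), 2 of 25 against 2.84% lower and 3.52% higher over the 8669 starts ranked that way. The smallest adjusted p of the 25 was 0.747. NPM1 ranked at 55.3, 59.9, 62.1 and 63.3 in Lgk974 24 h against 53.9, 50.1, 72.2 and 57.0 in DMSO 24 h, and ODC1 at 1.39, 4.68, 21.03 and 2.96 in Lgk974 24 h against 3.28, 1.87, 15.2 and 2.23 in DMSO 24 h, with overlapping groups for both. The summit of the start peak lay upstream of the start more often than downstream: in 20 of 25 genes (80.0%, against 70.9% of the 8669) the median position was upstream. The median offset over genes was −108 bp, against −76 bp over all of these starts.

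Between 24 h and 48 h no region of these genes differed at an unadjusted p under 0.05. With Lgk974 71 of their regions could be tested, and over all 38105 regions tested 0.367% had a higher rate at 48 h at such a p and 0.0525% a lower one. With DMSO 63 could be tested, and over 35886 regions 0.284% had a higher and 0.301% a lower rate at 48 h. The smallest p this test allows is 0.0286 in either treatment.

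The wider pathway was read from 6 further lists of 163 genes. An end of 151 was called in all 15 libraries. The ends of 3 could be tested, and none had an unadjusted p under 0.05. POLR2L, a subunit shared by RNA polymerases, had an accessible end in 3 of 7 Lgk974 and in 6 of 8 DMSO libraries (exact permutation p = 0.194), MYCN in 5 of 7 Lgk974 and in 7 of 8 DMSO libraries (exact permutation p = 0.571), and TERT in 3 of 7 Lgk974 and in 3 of 8 DMSO libraries. Over all genes, 0 of 5800 tested ends passed after adjustment (0.0%), and 250 had an unadjusted p under 0.05. MYC itself had an end called in all 15 libraries.

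The start ranks of 132 of the 163 could be compared, and 57 were higher and 75 lower with Lgk974. In the lists the counts were 13 higher and 21 lower for the small-subunit processome, 12 and 20 for the large subunit, 3 and 6 for snoRNP factors, 8 and 6 for RNA polymerase I, 5 and 4 for the MYC network and 16 and 18 for other MYC targets. The unadjusted p was under 0.05 for 1 with a higher and 6 with a lower rank, against 3.71% and 3.67% of the 8669 starts, and none passed after adjustment. The one with a higher rank was MLX, a partner of the MAX network, with a mean percentile of 24.2 over the Lgk974 and 13.01 over the DMSO libraries (exact permutation p = 0.00816, adjusted p = 0.393). The lower ones were UTP4, UTP15, MRTO4, NOC3L, GRWD1 and NUFIP1. NUFIP1, an assembly factor of box C/D snoRNPs, averaged 44.1 over the Lgk974 and 62.4 over the DMSO libraries, with the smallest p the test allows (exact permutation p = 0.000408, adjusted p = 0.118). GRWD1, a large-subunit chaperone, averaged 59.6 over the Lgk974 and 77.4 over the DMSO libraries (exact permutation p = 0.00571, adjusted p = 0.364), and NOC3L, also of the large subunit, averaged 49.1 over the Lgk974 and 63.8 over the DMSO libraries (exact permutation p = 0.00735, adjusted p = 0.375). These 7 were picked out by their values.

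The template of the pathway, the ribosomal DNA, is only partly placed in hg38. One scaffold assigned to chromosome 22, KI270733v1, is taken here as carrying a ribosomal DNA unit from background knowledge; the gene table used lists a ribosomal gene under chromosome 22 but names no scaffold, so the counts below rest on that assignment. Its peaks were counted after the data had been seen. It held 13, 14, 3 and 14 peaks in Lgk974 24 h against 10, 11, 14 and 11 in DMSO 24 h, with overlapping groups (difference −0.500, exact permutation p = 0.971). At 48 h it held 13, 17 and 12 peaks with Lgk974 against 7, 8, 7 and 9 with DMSO, and the groups did not overlap. That difference, 6.25 peaks, had the smallest p that 3 against 4 libraries allow (exact permutation p = 0.0286), and over both times the difference of 2.88 had an exact permutation p of 0.157. Per 100000 peaks of the list, the 48 h difference was 7.28 (exact permutation p = 0.0286). In all 5 such measures were tested, and the exact permutation p of both 48 h values was 0.0714 after Benjamini-Hochberg adjustment over the 5. Peaks on another ribosomal DNA scaffold, on all other scaffolds and at the ribosomal genes of chromosome 21 overlapped between treatments at both times. Of 24 regions on the scaffold, 14 had a higher and 3 a lower calling rate with Lgk974 at 48 h, and 2 were called in all 3 Lgk974 and no DMSO library at 48 h. Ribosomal DNA exists in many near-identical copies, so a read there cannot be given to 1 copy and these peaks are uncertain.

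**Figure D5:**
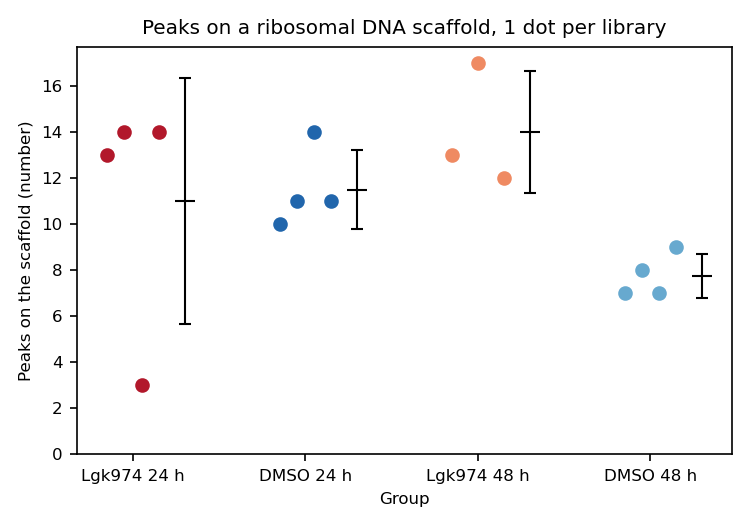
Number of peaks on the ribosomal DNA scaffold (y axis) in each library by group; a dot is a library and the bar is the mean with its SD. The 3 Lgk974 48 h libraries (12 to 17 peaks) lie above the 4 DMSO 48 h libraries (7 to 9), and the 24 h groups overlap (3 to 14 with Lgk974, 10 to 14 with DMSO).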

How the data were processed

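ATAC-seq peak lists of 15 HPAF-II libraries were used, 1 per library. Groups and replicate numbers came from the labels. Per the submitters' processing notes, the build is hg38 and the tools named are MACS2, Bowtie2, Trimmomatic, DiffBind, DESeq2, HOMER, ChIPseeker, Picard, bedtools and SAMtools; their roles, versions, settings, transposase shift and how lists were cleaned are not given there, and these set which weak peaks are listed. Each deposited peak has the authors' score, a fold over background (a ratio), and −log10 p and −log10 q values, used only to rank or filter peaks within a list. The deposited lists hold no reads, so depth is unknown and no count model could be fitted. One damaged line was read by its chromosome name.

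Peaks overlapping by 1 bp or more were merged. Gene spans, starts and promoters came from RefSeq (GRCh38.p14, the build series of hg38); all 30 symbols matched, 26 with a promoter. Calling per region was compared by a 2-sided exact permutation test with treatment permuted within time (2450 assignments), adjusted by Benjamini-Hochberg over regions called in 3 to 12 libraries, with scipy 1.17.1, numpy 2.4.6 and pandas 2.3.3 under Python 3.11.15; figures used matplotlib 3.10.9. The functions were tested on simulated data. The detection excess is the mean of called minus that library's calling rate for regions called in as many libraries. Named were all 30 genes, each end region tested, and in each direction the 10 near regions with the smallest p. One marker gene each of the epithelial and leukocyte lists is not reported here. Genes, lists and tests were chosen with earlier results of these data known. Alternatives were lists of equal length, 50% cover, summit windows, −log10 q of 5 or more, other distances, other expected rates, a replicate block and leaving out libraries.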

Additional observations from a re-analysis of the deposited data

Results flagged for a closer look

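Among 29 values, each tested in the 3 groups of 4 libraries, 11 of 87 groups held a library far from the other 3, where chance gives about 1 in 20 (4.35). Of the 11, 6 were DMSO 24 h replicate 3 and 2 were Lgk974 24 h replicate 3, both among the libraries that stood apart. The gene-end detection excess of DMSO 48 h replicate 1 was −3.71 points, against 2.62 to 3.46 in the other DMSO 48 h libraries. Lgk974 24 h replicate 3 called 127 near regions, against 204 to 210 in the other Lgk974 24 h libraries.

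The remaining 9 were start percentiles. In DMSO 24 h replicate 3 the start of RRP9 ranked at 77.4, BYSL at 28.1, NIP7 at 40.8 and NME1 at 21.4, below the other DMSO 24 h libraries, while ODC1 ranked at 15.2 and CAD at 57.4, above them. In Lgk974 24 h replicate 3 ODC1 ranked at 21.03, above the other Lgk974 24 h libraries, and in Lgk974 24 h replicate 2 SRM ranked at 29.1, above them. In DMSO 48 h replicate 2 FBL ranked at 18.2, below the others.

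Outside the 30 genes, the ribosomal DNA scaffold held 6.25 more peaks per library with Lgk974 than with DMSO at 48 h (14 ± 2.65 against 7.75 ± 0.957, SD, n = 3 and 4, exact permutation p = 0.0286), with no overlap between the groups. Its count was chosen after the values were seen, and after adjustment over 5 such measures the exact permutation p was 0.0714. With lists of equal length the 48 h counts were 7, 7 and 11 with Lgk974 against 2, 4, 4 and 4 with DMSO, again without overlap (difference 4.83, exact permutation p = 0.0286). The 24 h difference was then −1.75 and that over both times 1.54, against −0.500 and 2.88 in complete lists.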

How the results depend on the processing

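Read depth is unknown and limits what a missing peak shows. Under all alternatives run, 0 regions, start ranks and gene neighbourhoods passed after adjustment. With lists of equal length the Lgk974 minus DMSO difference was 1.38 points in end excess, −1.56 in near excess and 0.583 in end regions called, and 14 of 28 named regions kept their direction. Those values cover only the 37 end and 187 near regions that kept a peak. With 50% cover 17 genes had an end in all libraries, against 28. Summit windows gave 5 of the 111 near regions tested lower at an unadjusted p under 0.05. A 20 kb limit gave a near excess difference of −2.11 and 1 near region higher. With the replicate block, 0 near regions were higher and 0 lower, 1 end region was lower, against 3, and the end excess difference was −5.25. Same-numbered libraries correlated by 0.102 to 0.142 at 24 h (differently numbered, median −0.0675) and −0.0321 to 0.146 at 48 h (median −0.0583). Not every pair was over 0.1, so the main tests did not pair the libraries by number, and their p-values do not allow for such a pairing. Of 14 libraries, 8 correlated best with their own number. Without the 3 libraries that stood apart, 6 of the 68 near regions tested were higher. Leaving out 1 library at a time gave 1 to 5 near regions higher (5 without Lgk974 48 h replicate 3; 1 when the library dropped was Lgk974 24 h replicate 1 or 4, Lgk974 48 h replicate 2, DMSO 24 h replicate 2, 3 or 4, or any DMSO 48 h library) and 2 to 4 lower, an end excess difference of −6.21 to −4.71 and a near excess difference of −0.723 to −0.254. The share of all regions past the unadjusted threshold was not counted under these alternatives, so these counts cannot be read against it. The cause of these shifts was not tested. Of the 28 named regions 3 turned direction: the NOP2 region 4.5 kb inside the gene (4.17 percentage points) and the NME1 end (8.33) with −log10 q of 5 or more, the NME1 end without the 3 libraries (12.5), and, leaving out 1 library, the NME1 end (−16.7 to 12.5) and the SRM end (−12.5 to 12.5). Added after seeing the data were the start ranks, neighbourhoods and scaffold counts with their alternatives.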
